A study of Rattus norvegicus with 12 samples.

Results

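Lesioned and unlesioned rats were compared here within the stimulated animals: 3 stimulated PD rats (motor cortex samples labelled stim on PD) against 3 stimulated control rats (stim on ctrl), 6 of the 12 samples of the series. The members were taken from the sample titles, and no measured value entered the choice. PD stands for the model of Parkinson's disease made with 6-OHDA (6-hydroxydopamine), a toxin that enters catecholamine neurons. According to the study's design text, an array of graphene electrodes in the primary motor cortex gave wireless stimulation at 130 Hz, 1 hour daily during 2 weeks. That text describes it for the model, and no source states the schedule of the stimulated controls. Both groups carry the label of stimulation, and they differ in their labels only by the 6-OHDA model. The other 6 samples are 3 PD and 3 control rats without stimulation. No label used here gives the side or completeness of the lesion, the sex, age or strain of the rats, or a sham operation.

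The motor cortex sends the commands for voluntary movement and is part of a loop with the basal ganglia. Dopamine neurons of the midbrain supply the striatum in this loop and, more sparsely, the cortex itself. 6-OHDA given near these neurons or their axons removes that supply, so the cortex of such rats is a target of the lost input, not the site where the cells die. Cortical RNA is therefore read as the state of a whole tissue of neurons, glia and vessels, in which fewer cells of a type and less RNA per cell cannot be told apart.

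Levels are CPM, counted reads of a feature scaled to a common library total, under Ensembl rat gene identifiers. None of the tables used here pairs these identifiers with gene symbols (0 of 16534 matched). Features are for this reason described by level, size and direction, 2 identifiers are given in each direction, and neither the labelled tissue nor any cell type could be checked against its markers. The stimulated PD libraries held 45862054 to 52830363 counted reads and the stimulated control libraries 56283725 to 58122292. Depth thus differed between the groups without overlap, and its part in the results was not tested. Titles number the rats but do not say how the samples were taken, and p-values set a difference against the spread between samples. That spread is taken from all 4 groups unless a fit of fewer groups is named.

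The 6 libraries were ordered by lesion on their first principal component, which carried 55.4% of their variance. Stimulated PD rats 1, 2 and 3 scored 21.9, 6.36 and 44.0, and stimulated control rats 1, 2 and 3 scored -26.0, -0.319 and -45.9. The groups did not overlap on this axis, but rat 2 of each group lay close to the other group on it. On the second component, with 20.3% of the variance, stimulated PD rat 2 scored 34.8 and stimulated control rat 2 scored -15.2. Pearson's r between 2 libraries, on log2(CPM + 0.5), was 0.976 to 0.988 among stimulated PD rats, 0.982 to 0.985 among stimulated controls and 0.956 to 0.987 between the groups. Some pairs from different groups were thus as alike as pairs from 1 group, with stimulated PD rat 1 and stimulated control rat 2 at 0.987. The lowest value, 0.956, was that of stimulated PD rat 3 and stimulated control rat 3.

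Among features called both as deposited and with TMM factors, the 2 with the largest difference in each direction are described first. Of all features tested 12 were lower by more than 4-fold as deposited, on the log2(CPM + 0.5) scale. Of these 12, 2 were called with all 12 libraries as deposited and 8 with only the 6 stimulated libraries. Larger lower differences than those described thus exist among features that the 12-library fit as deposited did not call. ENSRNOG00000012067 stood at 14.6, 27.6 and 43.9 CPM in stimulated PD rats 1, 2 and 3, and at 0.409, 0.688 and 1.24 CPM in stimulated controls 1, 2 and 3. Every stimulated PD rat lay far above every stimulated control. In counted reads this was 671 to 2043 in the former and 23 to 70 in the latter, so both levels were above the counting floor. The feature rose from 0.778 ± 0.421 to 28.7 ± 14.7 CPM (SD, n = 3), a log2 difference of 4.43 (SE 0.45, limma adjusted p = 0.00388), or 4.52 with TMM factors, which rescale each library on the premise that most features do not differ (limma adjusted p = 0.00448).

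ENSRNOG00000032825 stood at 8.98, 22.7 and 18.8 CPM in stimulated PD rats 1, 2 and 3 and at 0.853, 1.20 and 0.636 CPM in stimulated controls. The groups did not overlap, and stimulated PD rat 1 was the lowest of its group. The feature rose from 0.898 ± 0.287 to 16.8 ± 7.05 CPM (SD, n = 3; log2 difference 3.55, SE 0.67, limma adjusted p = 0.0478). Among unstimulated rats, control rat 1 stood at 14.0 CPM beside 1.78 and 1.34 CPM in control rats 2 and 3, so a control could reach the level of lesioned rats. The call was lost when control rat 2 or 3, stimulated control rat 1 or 3, or any 1 stimulated PD rat was left out (limma adjusted p = 0.0735 to 0.237). Without control rat 1 the limma adjusted p was 0.0121. With only the 6 stimulated libraries fitted the SE was 0.35 and the limma adjusted p 0.0279. When 1 library was then left out, the feature passed in 2 of 6 fits.

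ENSRNOG00000069829 was low and even in lesioned rats, with 0.502, 0.530 and 0.710 CPM in stimulated PD rats against 4.21, 4.49 and 3.27 CPM in stimulated controls 1, 2 and 3. The highest stimulated PD value lay well below the lowest control value. It fell from 3.99 ± 0.640 to 0.580 ± 0.113 CPM (SD, n = 3; log2 difference -2.05, SE 0.19, limma adjusted p = 0.00264). It had the smallest adjusted p of all features, and with TMM factors the difference was -1.95 (limma adjusted p = 0.00448).

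ENSRNOG00000013793 stood at 0.589, 0.511 and 2.67 CPM in stimulated PD rats 1, 2 and 3 and at 9.13, 4.20 and 12.3 CPM in stimulated controls. Stimulated PD rat 3 and stimulated control rat 2 were the rats that came nearest to each other. The feature fell from 8.54 ± 4.08 to 1.26 ± 1.22 CPM (SD, n = 3; log2 difference -2.46, SE 0.47, limma adjusted p = 0.0478). Leaving out any 1 control, stimulated control rat 1 or 3, or any 1 stimulated PD rat lifted its limma adjusted p to between 0.0523 and 0.237.

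**Figure D1:**
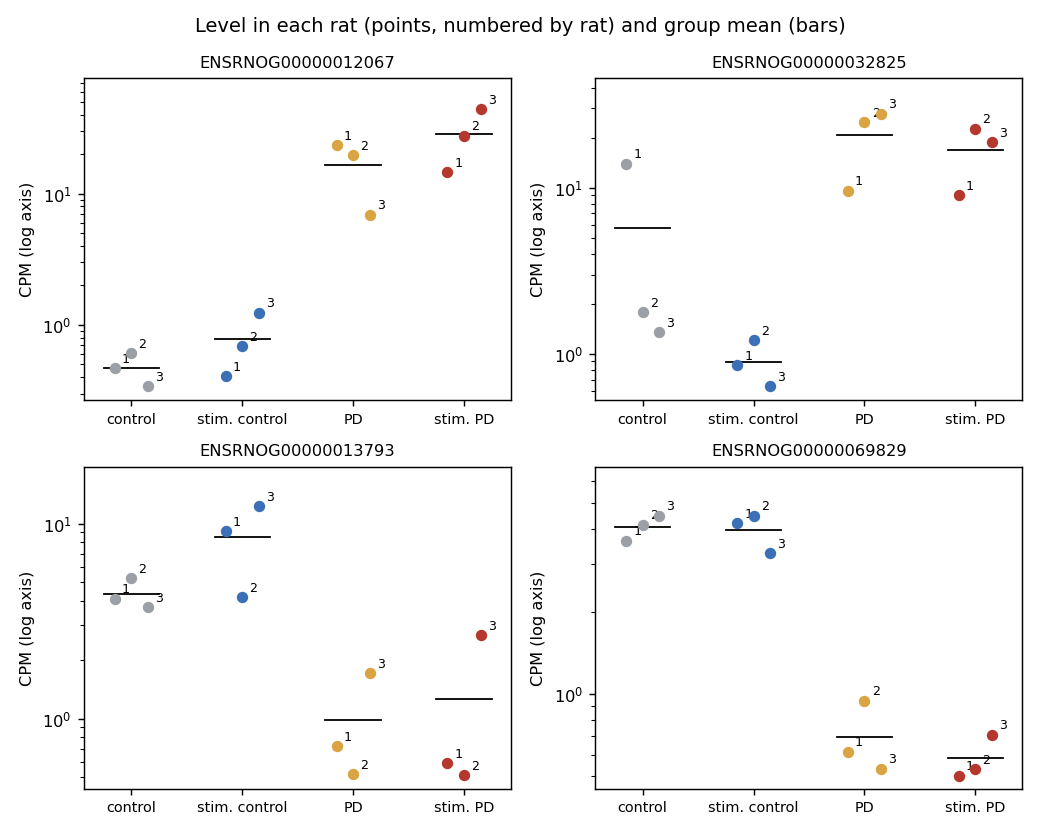
CPM on a log axis of the 4 features named by rule, in each rat (points, numbered by rat) with the group mean (bar), for all 4 groups of 3 rats. 3 panels separate all lesioned from all unlesioned rats; for ENSRNOG00000032825 control rat 1, at 14.0 CPM, lies among the lesioned rats.

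The 4 features were also measured in the unstimulated rats, which share no library with the stimulated ones. ENSRNOG00000012067 was at 16.7 ± 8.62 CPM in PD and 0.473 ± 0.135 CPM in control rats (SD, n = 3). ENSRNOG00000069829 was at 0.697 ± 0.218 and 4.10 ± 0.431 CPM. ENSRNOG00000032825 was at 20.7 ± 9.78 and 5.69 ± 7.16 CPM, and ENSRNOG00000013793 at 0.982 ± 0.636 and 4.36 ± 0.775 CPM. The lesion difference with stimulation minus that without, in log2 units, was 0.45 for ENSRNOG00000012067 (95% interval -0.95 to 1.85), 1.26 for ENSRNOG00000032825 (-0.82 to 3.33), -0.67 for ENSRNOG00000013793 (-2.12 to 0.77) and -0.10 for ENSRNOG00000069829 (-0.68 to 0.49). None passed (limma adjusted p = 0.834 to 0.926), and the intervals are wide enough to hold a doubling in 1 direction or the other for all but ENSRNOG00000069829. The 4 features were chosen for their difference in the stimulated pair, which is the first term of this measure. The estimates can therefore lean toward a larger difference with stimulation, and the intervals do not allow for this choice.

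Over all 14985 features tested, 217 (1.45%) passed in stimulated PD against stimulated control rats: 66 (0.440%) stood higher in the PD rats and 151 (1.01%) lower. This limma fit used CPM as deposited and took the spread from all 4 groups. The 66 higher features had a median level of 62.3 CPM over all libraries, with 39 of them at 50 CPM or above, and a median log2 difference of 0.66. At 50 CPM or above were also 47 of the 151 lower calls, and 4459 of the 14985 features tested. The 151 lower features had a median of 24.4 CPM and a median log2 difference of -0.91, and 61 of them differed more than 2-fold, against 13 of the higher ones; with TMM factors 62 lower and 22 higher calls did. Counts of lower and higher features have to be read against the median of all features, which was itself -0.12.

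With TMM factors that median moved to -0.01 and the balance of calls turned. Then 360 features (2.40%) were higher and 165 (1.10%) lower, 3.50% of features tested together, so 31.4% of calls were lower in place of 69.6%. The split was 472 higher and 268 lower after quantile normalization, and 6 and 8 with median-of-ratios factors. All 66 higher features and 126 of the 151 lower ones were called in the same direction under both scalings. The 4 named features were drawn from these 66 and 126 features by size of difference. Which direction was in the majority therefore depended on scaling.

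The threshold lay on a steep part of the list of p-values. As deposited, 312 features had an adjusted p between 0.05 and 0.06, and at an adjusted p under 0.1 there were 1920 features (580 higher, 1340 lower), or 2033 with TMM factors (1220 higher, 813 lower). Unadjusted p-values under 0.05 were found for 3945 features, 26.3% of those tested, and for 3833 with TMM factors. TMM factors computed over the tested features only, a choice added after seeing the data, left 12 calls (5 higher, 7 lower) but still 1873 at an adjusted p under 0.1. Leaving out 1 library gave between 2 and 2258 calls, and 2210 to 5284 features with an unadjusted p under 0.05. Of the 4 named features, ENSRNOG00000012067 and ENSRNOG00000069829 kept their call in this fit whichever of the 12 libraries was left out.

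The median SD over features, in log2 units, was 0.137 in stimulated PD, 0.155 in stimulated control, 0.126 in control and 0.285 in unstimulated PD rats. The number of calls also changed when 1 library was left out, and how far spread took part in this was not tested. The calls numbered 1876, 2258 and 577 without PD rat 1, 2 or 3, which are outside the comparison. Without stimulated control rat 2 they numbered 868. Without control rat 1, 2 or 3 they numbered 6, 3 and 3, without stimulated control rat 1 or 3 they numbered 3 and 2, and without stimulated PD rat 1, 2 or 3 they numbered 3, 2 and 2.

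**Figure D2:**
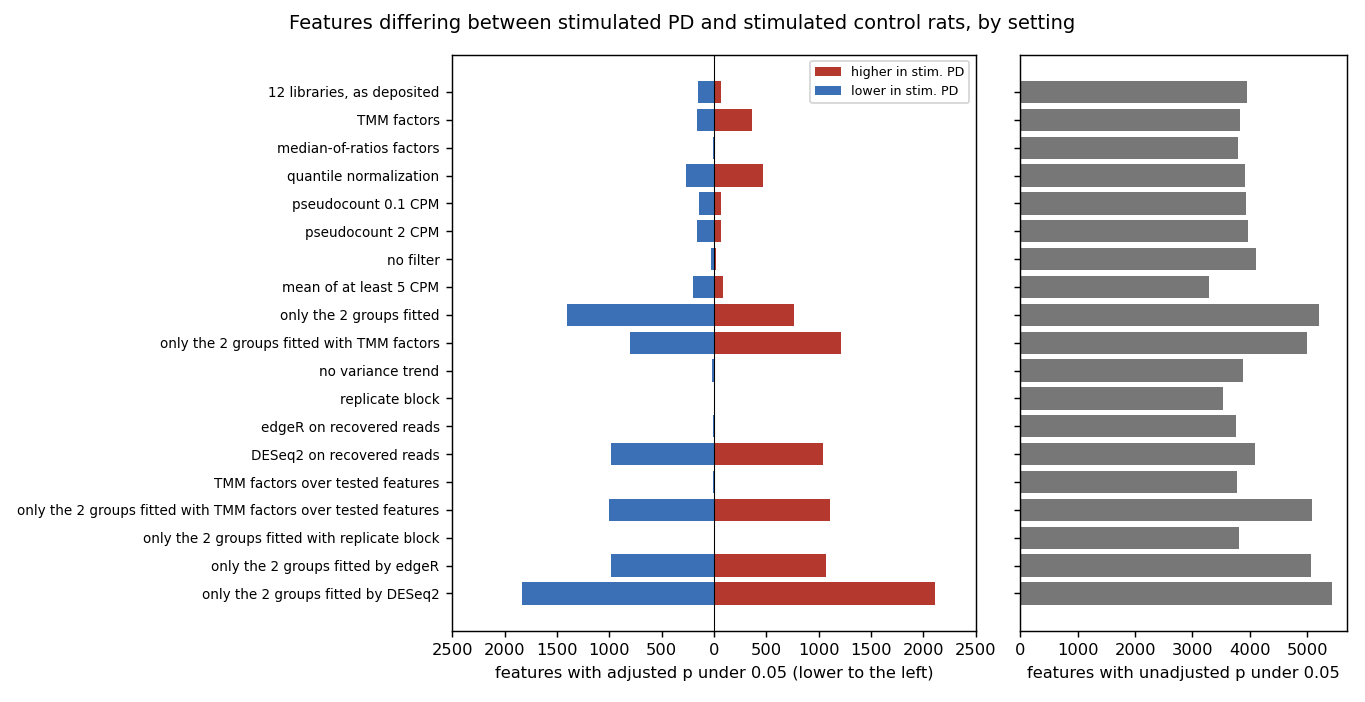
Number of features with an adjusted p under 0.05 in stimulated PD against stimulated control rats (left, higher to the right of 0 and lower to the left) and with an unadjusted p under 0.05 (right), for each way of fitting all libraries or only the 2 groups. Adjusted calls range from 0 to 3947, while 3295 to 5432 features have an unadjusted p under 0.05.

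With only the 6 stimulated libraries in the fit, which leaves 4 residual degrees of freedom, 763 features (5.09%) were higher and 1400 (9.34%) lower, 14.4% of those tested together. With TMM factors 1210 (8.07%) were higher and 801 (5.35%) lower, 13.4% together, so 39.8% of calls were lower in place of 64.7%. Both scalings shared 1546 calls (10.3%), of which 747 (4.98%) were higher and 799 (5.33%) lower. All 217 calls of the 12-library fit as deposited were among those of the 6-library fit as deposited. Most were small: as deposited, 1335 of the 2163 calls (61.7%) differed less than 1.5-fold, and the median was 0.44 for higher and -0.57 for lower features on the log2 scale. More than 2-fold differences were called for 19 higher and 174 lower features, or 30 and 106 with TMM factors. The count stood or fell with single rats, at 0, 2319 and 0 without stimulated control rat 1, 2 or 3 and at 2, 0 and 1 without stimulated PD rat 1, 2 or 3; limma then still gave 3951 to 5390 features with an unadjusted p under 0.05. With TMM factors these counts were 0, 2297 and 234, and 5, 0 and 1, with unadjusted p under 0.05 for 3813 to 5381.

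**Figure D3:**
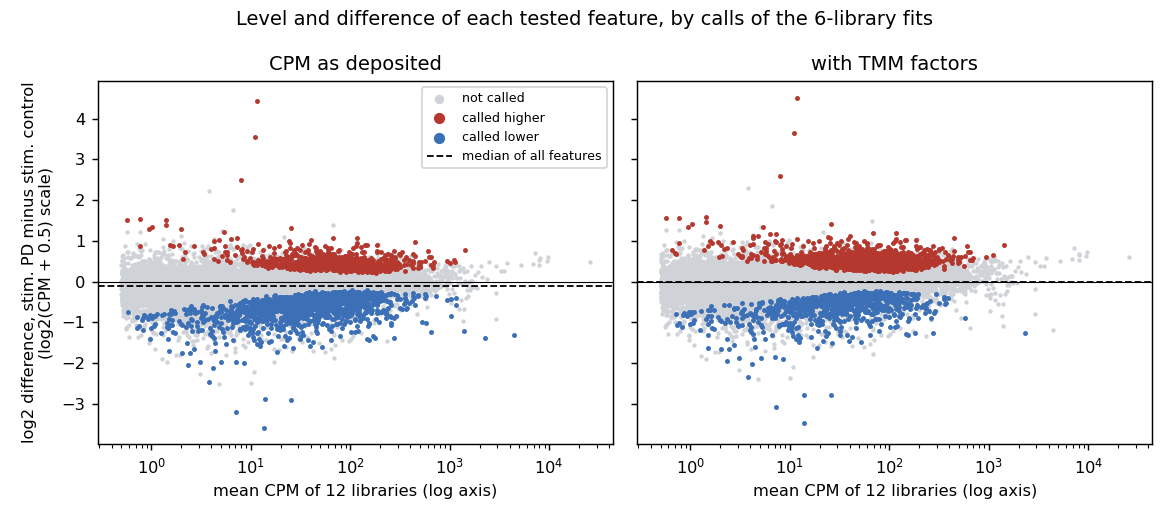
Log2 difference between stimulated PD and stimulated control rats (vertical) against mean CPM (horizontal, log axis) for 14985 features, as deposited (left) and with TMM factors (right); colours mark calls of the fits with only the 6 stimulated libraries. The dashed median lies at -0.12 on the left and -0.01 on the right, and weaker features lean downward in both.

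The difference depended on abundance. The median log2 difference was -0.23 among the 3255 features under 5 CPM, -0.14 among the 7271 between 5 and 50 CPM and -0.03 among the 4459 at 50 CPM and above. With TMM factors the 3 medians were -0.14, -0.02 and 0.09, each moved up by the rescaling. In the 6-library fits, 22 features under 5 CPM were called higher and 83 lower under both scalings. Between 5 and 50 CPM these counts were 271 and 449, and at 50 CPM and above 454 and 267. As deposited, the share called was 4.02% under 5 CPM and 23.1% at 50 CPM and above, and the median SD within stimulated PD rats fell from 0.263 to 0.0932.

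At the top of the range, 9 of the 10 most abundant features stood higher in every stimulated PD rat than in any stimulated control, as did 31 of the 100 most abundant, while 18 of those 100 stood lower in every PD rat. Over all features tested 14.3% were higher without overlap between the groups and 27.1% lower, or 22.2% and 17.8% with TMM factors. The most abundant feature was at 27691, 28317 and 31853 CPM in stimulated PD rats 1, 2 and 3 and at 20871, 21183 and 20859 CPM in stimulated controls. The 9 features were 1.31 to 1.63 times as high, or 1.43 to 1.77 times with TMM factors. Stimulated PD rat 3 was the highest for all 9, and the other 2 stimulated PD rats lay nearer to the controls. As deposited, 0 of the 9 passed limma with 12 or with 6 libraries, and with TMM factors 1 passed with 12 libraries. The share of reads in each library's own 10 most abundant features, which need not be the same 10 in every library, was 10.6% ± 1.48 of reads in stimulated PD and 7.78% ± 0.192 in stimulated control rats (SD, n = 3), with a two-sided exact permutation p of 0.1, below which 3 rats against 3 cannot go. Without stimulation this share was 10.6% ± 0.860 in PD and 8.37% ± 0.506 in control rats (SD, n = 3). The same 9 features were also higher in PD than in control rats there, by 0.0592 to 0.483 in log2 units.

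The tenth feature went the other way. It stood at 2306, 1881 and 3905 CPM in stimulated PD rats 1, 2 and 3 and at 6721, 4734 and 8049 CPM in stimulated controls. Its level was 2697 ± 1067 against 6501 ± 1668 CPM (SD, n = 3; log2 difference -1.31), which did not pass with all libraries (limma adjusted p = 0.0614) and passed with 6 libraries as deposited (limma adjusted p = 0.0431) but not with TMM factors (0.0754). Unlike the other 9, this feature also varied among stimulated controls, and stimulated control rat 2 was again the one nearest to the PD rats.

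**Figure D4:**
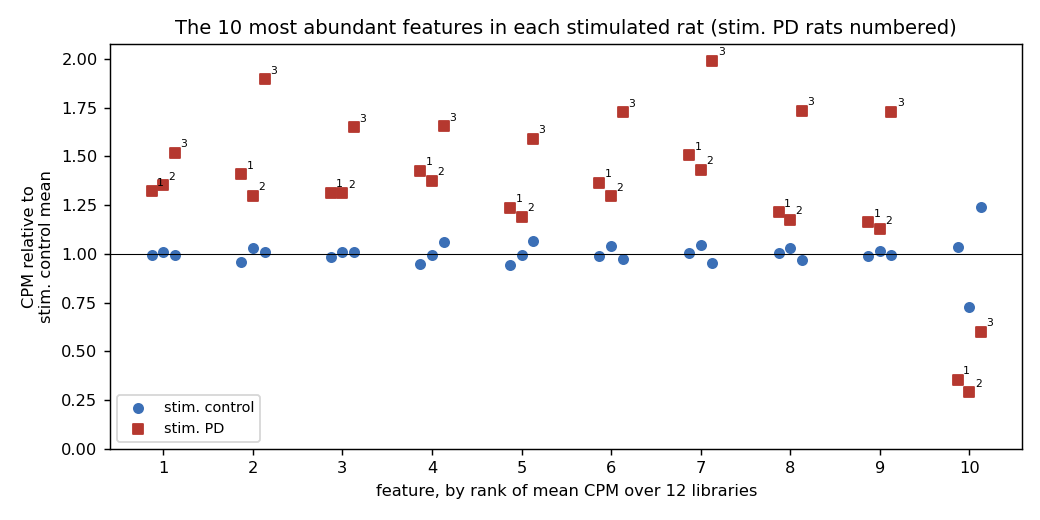
CPM of the 10 most abundant features in each stimulated rat, divided by the mean of the stimulated controls; squares are stimulated PD rats, numbered, and circles stimulated controls. Ranks 1 to 9 lie above 1 in all 3 stimulated PD rats, with rat 3 highest, and rank 10 lies below.

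Single rats differed in how far they stood from the other group. Over all 14985 features, stimulated PD rat 3 was the farthest of its group from the stimulated control mean for 45.2%, rat 2 for 30.0% and rat 1 for 24.8%. Stimulated control rat 2 was the nearest of its group to the stimulated PD mean for 48.1%, rat 1 for 33.7% and rat 3 for 18.3%. Over the 151 lower calls, stimulated control rat 2 was the nearest for 116 (76.8%). Over all features as deposited, the median log2 difference of a stimulated PD rat from the control mean was -0.10 in rat 1, -0.04 in rat 2 and -0.18 in rat 3. With TMM factors these medians were -0.00497, 0.0238 and -0.00644, and rat 3 was the farthest for 43.7% of features.

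Libraries of both groups did not overlap for 6205 features (41.4%), of which 2141 (14.3%) were higher and 4064 (27.1%) lower with the lesion. With TMM factors these counts were 5990 (40.0%), 3322 (22.2%) and 2668 (17.8%). Differences of more than 4-fold were rare: 4 features were higher and 12 lower by this margin, and 5 of these 16 were called with all libraries and 11 with 6. No feature with a mean of at least 1 CPM in one group had 3 reads or fewer in every library of the other. Features at 0 in any library are not in the deposited table, so switching off completely would not be seen.

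The same features were followed in the unstimulated pair of groups, PD against control. Of the 66 higher and 151 lower features, 66 and 151 had an estimate of the same sign there, with medians of 0.41 and -0.61. Over all features 35.1% of estimates were positive and 64.9% negative, with a median of -0.11. Both pairs take their p-values from the same residual variance, to which the unstimulated rats contribute. The shared signs and the 17 higher and 51 lower features called in both are for this reason not independent. Without stimulation this fit called 4.38% of all features, 0.280% higher and 4.10% lower. Fitting each pair by itself removes this link. Of the 763 higher features of the 6-library fit, 686 (89.9%) had a positive estimate without stimulation, and of the 1400 lower ones, 1246 (89.0%) had a negative estimate, against 35.1% and 64.9% of all features.

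Few of them were called in both when fitted apart. PD against control rats by themselves gave 618 calls (15 higher, 603 lower), 4.12% of features tested. In both pairs 81 features were called in the same direction and 0 in opposite directions, which is 3.74% of the stimulated and 13.1% of the unstimulated calls. With TMM factors the unstimulated pair gave 432 calls (2.88%), of which 56 were shared and 0 opposite. The shared ones were 2.78% of the stimulated calls. They were 8 of 1210 higher features (0.661%, against 0.120% of all features) and 48 of 801 lower ones (5.99%, against 2.76%). Judged by overlap of libraries alone, 515 features were higher and 1501 lower in lesioned rats of both pairs, while 13 and 9 separated in opposite directions. These are 24.1% and 36.9% of the stimulated and 59.2% and 43.1% of the unstimulated features without overlap, where PD against control had no overlap for 29.1% of all features (5.81% higher, 23.3% lower).

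Whether the lesion difference was itself changed by stimulation was tested as an interaction over all 12 libraries. By limma 0 features passed. An unadjusted p below 0.05 was found for 619 (4.13%), and the lowest adjusted value was 0.834. Without PD rat 1 the number at an unadjusted p below 0.05 was 3140, and limma still gave 0 features with an adjusted p under 0.05. TMM factors also gave 0, with 652 at an unadjusted p under 0.05, edgeR gave 0 and DESeq2 gave 30. This does not show that the lesion difference was equal with and without stimulation, since the interaction had a median SE of 0.258 on the log2 scale, more than that of the stimulated pair (0.183).

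**Figure D5:**
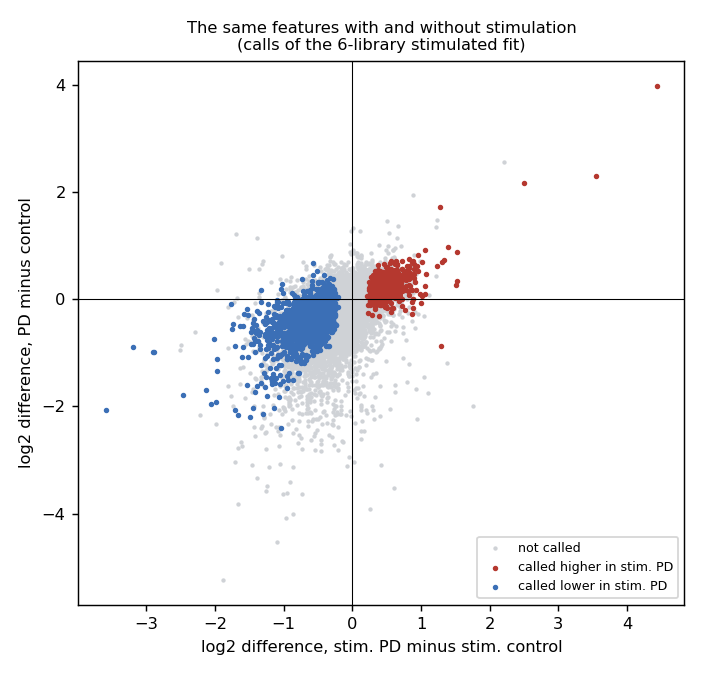
Log2 difference of PD minus control rats without stimulation (vertical) against that of stimulated PD minus stimulated control rats (horizontal) for each feature; colours mark calls of the fit with only the 6 stimulated libraries. Of the coloured points, 686 of 763 higher and 1246 of 1400 lower ones have the same sign on both axes.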

How the data were processed

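Stranded mRNA libraries of motor cortex from 12 rats were sequenced, per the labels' protocols. The submitters' processing notes list STAR, Trim Galore and featureCounts, without versions, and the build mRatBN7.2; the annotation release and the strand setting of counting were not given. The deposited values are CPM, calculated by the authors, for 16534 features; all 12 columns were matched to samples by their short descriptions. Taking a column's smallest value as 1 read gave whole reads for 100% of values (tolerance 0.001 read), and so the library totals. Titles number the rats within groups, so libraries were taken as separate animals.

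The 14985 features averaging 0.5 CPM or more over all libraries were fitted as log2(CPM + 0.5), a scale on which changes of low features appear too small. The tool was limma 3.58.1 under R 4.3.3, with a mean for each of 4 groups, a trended prior variance and 8 residual degrees of freedom. Two-sided p-values were Benjamini-Hochberg adjusted over these features, and an adjusted p under 0.05 was called. TMM factors came from edgeR 4.0.16 on recovered reads over all 16534 features. Alternatives were other scalings, pseudocounts, filters, variance priors, a replicate block, fits of the 2 groups alone, edgeR, DESeq2 1.42.0 and leaving out libraries. The scripts were tested on simulated data. These had the same spread setting for every feature and group, so they do not bear on how calls depend on scaling or single rats. On recovered reads, edgeR called 15 features.

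The comparison, lists and rules were chosen with earlier results of these data known. Named features had the largest difference among those called as deposited and with TMM factors, without overlap between groups and with at least 1 CPM in the higher group, limited to 2 per direction because symbols were lacking. For the same reason 39 gene lists and the share of mitochondrially encoded reads were not analysed here.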

Additional observations from a re-analysis of the deposited data

How the results depend on the processing

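The number of features called between stimulated PD and stimulated control rats (217 by limma) was 525 with TMM, 14 with median-of-ratios and 12 with tested-feature TMM factors, 740 after quantile normalization, 41 without a filter, 33 without a variance trend, 15 by edgeR and 2019 by DESeq2. It was 214 and 223 with pseudocounts of 0.1 and 2 CPM and 292 with a filter at 5 CPM. With only the 2 groups fitted it was 2163, or 2011 with TMM and 2110 with tested-feature TMM factors, 2049 by edgeR and 3947 by DESeq2. Leaving out 1 library gave 2 to 2258 calls as deposited, and 3 to 1016 with TMM factors (4, 1016 and 3 without stimulated control rat 1, 2 or 3, and 8, 3 and 5 without stimulated PD rat 1, 2 or 3). With the 2 groups alone it gave 0 to 2319, or 0 to 2297 with TMM factors. Apart from the alternatives' own changes in libraries and features, the cause was not tested. The interaction was 0 under every limma and edgeR setting run, leaving out each library included (366 to 3140 features at an unadjusted p under 0.05), and 30 by DESeq2.

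The replicate block, with rat numbers from the titles, left 2 calls with 12 libraries and 0 by limma with 6 (3813 features at an unadjusted p under 0.05). Same-numbered stimulated rats, which are different animals, did not deviate together (r = 0.0417, -0.403 and -0.298). Differently numbered ones had r from -0.126 to 0.396. Column names number some rats otherwise than the titles do, and no label ties a number to shared handling. This check therefore cannot decide whether a block belongs in the fit. The main fit was run without one.

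The 4 named features kept their direction under all alternatives that held them. With only the 2 groups fitted and 1 library left out, ENSRNOG00000012067, like ENSRNOG00000069829, passed in 1 of 6 fits as deposited. Over all, ENSRNOG00000012067 passed in 39 of 48 alternatives, ENSRNOG00000069829 in 37 of 47, ENSRNOG00000032825 in 22 of 48 and ENSRNOG00000013793 in 17 of 47. With a filter at 5 CPM, ENSRNOG00000069829 and ENSRNOG00000013793 were not in the fit. The share of mitochondrially encoded reads was not run, since identifiers were not named.

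Fits of the 2 groups by other tools, with the block or without 1 library, and tested-feature TMM factors, were added after seeing the data.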
